A study of Mus musculus with 12 samples.

Results

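The effect of azoxymethane and dextran sodium sulfate (AOM+DSS) on the colon mucosa was taken as the mean of 2 treatment effects, 1 in mice carrying wild-type bone marrow and 1 in mice carrying Muc1 knockout marrow. All 12 arrays of the series entered, 6 from treated and 6 from untreated mice. AOM is a colon carcinogen and DSS in the drinking water injures the colon lining, so that repeated cycles give colitis followed by tumours. Every mouse was a C57BL/6 wild-type recipient of C57BL/6 marrow, from a wild-type donor (WT marrow) or a Muc1 knockout donor (KO marrow). Muc1 encodes a membrane mucin, and in KO-marrow chimeras the recipient's own cells, the epithelium included, kept the gene. The untreated groups were WT_untreated and KO_untreated, and the treated groups were WT_AOMDSS and KO_AOMDSS, each of 3 mice. Treated mice received AOM at 12.5 mg/kg into the peritoneum and, 5 days later, 2% DSS for 4 days and plain water for 14 days. That cycle was given again, and 2.5% DSS for 5 days ended the course, with scraped mucosa taken 1 day after it. Treated mucosa was therefore sampled just after a DSS exposure, and no group of the series received 1 agent alone. The labels used here give no tumour count, age, sex or hour of sampling.

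DSS colitis brings neutrophils and monocytes out of the blood into the mucosa. They follow chemokines made by epithelium, stroma and the first leukocytes to arrive, and cytokines such as interleukin 1, interleukin 6 and interleukin 22 turn on STAT3 targets, lectins and protease inhibitors in the epithelium. The surface epithelium that carries salt transporters and detoxifying enzymes is lost or immature while crypts repair. In scraped mucosa a lower level can mean fewer cells of a type or less RNA per cell, and these cannot be told apart.

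Each gene's level is the log2 processed signal of 1 probe minus the 75th percentile of its array, so that 0 is the 75th percentile of gene spots. A gene was past the marrow fit if its mean effect, from a model with a mean for each of the 4 groups, had an adjusted p under 0.05 in limma. It was past the slide-blocked fit if the same effect passed with slide as an added term, and past both fits if it passed each with the same sign. The arrays lay on 3 slides. On slide 1 were all WT_untreated mice with KO_untreated 1, on slide 2 the untreated pair KO_untreated 2 and 3 with the treated pair WT_AOMDSS 3 and KO_AOMDSS 3, and on slide 3 the other 4 treated mice. Slide 3 was scanned on a day of its own, and its arrays had 491 to 767 spots marked non-uniform, where the others had 4 to 51. The 75th percentile of signal was 153.2 units on WT_AOMDSS 3 and 332 to 767.8 on the remaining arrays, and 58.44% to 78.72% of probes per array were well above background. Treated and untreated mice thus met on slide 2 alone. In the slide-blocked fit, a gene with 12 values took its mean effect from the 2 treated arrays of slide 2 (weight 0.5 each), its 2 untreated arrays (weight -0.5 each), KO_untreated 1 (0.5) and the 3 WT_untreated arrays (-0.167 each), and the 4 arrays of slide 3 had weight 0.

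Treatment raised more genes than it lowered among those past both fits: of 23747 genes 773 passed, with 559 higher and 214 lower after AOM+DSS. The background shares were 2.36% of genes tested in both fits for higher and 0.902% for lower calls. Of genes with a symbol, 417 passed higher (2.85%) and 173 lower (1.18%). These 2 shares are the background for each list count of genes past both fits below. The marrow fit called 4988 genes, 1794 higher (7.55%) and 3194 lower (13.5%), and the slide-blocked fit called 1494, 993 higher (4.18%) and 501 lower (2.11%). The fits thus leaned opposite ways, and the median effect of all genes was -0.19 in the marrow fit and 0.46 with slide as a block. No gene passed the fits with opposite signs (0), and 682 of the 773 changed by at least 2-fold in both. With median scaling, 362 of 605 genes past both fits were higher, and with normexp background correction 203 of 393. The same scalings gave 3211 of 5810 and 1118 of 2377 higher in the marrow fit, and 472 of 1674 and 260 of 602 with slide as a block. Quantile normalization gave 565 of 1065 higher with slide as a block. Changes in the many genes near these medians therefore have no settled direction. Genes and lists far from the medians are described below, along with some near them, to which this limit applies.

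**Figure D1:**
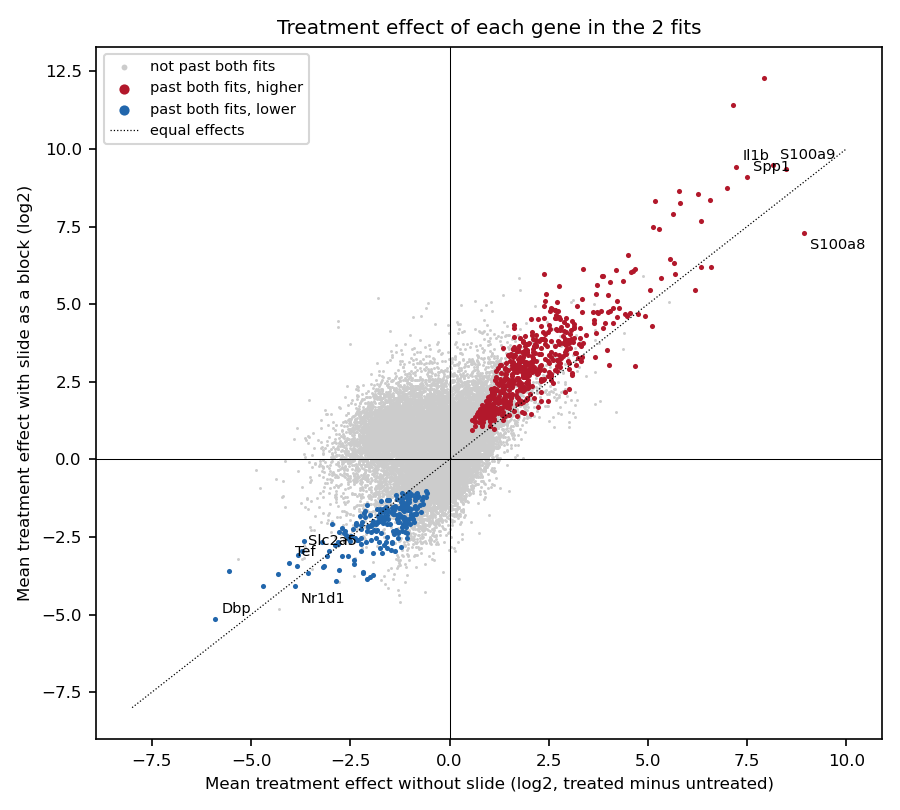
Each point is a gene, at its mean treatment effect from the marrow fit (x axis, log2) and from the slide-blocked fit (y axis, log2), with the 559 genes higher and 214 genes lower past both fits in red and blue and other genes in grey. Across all genes the effects correlate at 0.4, and the coloured genes occupy the upper right and lower left corners.

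The 2 treated and 2 untreated arrays of slide 2, and the 8 arrays of slides 1 and 3, are separate sets of mice. Across all genes the treated minus untreated differences of these sets correlated at -0.01, and 43.3% of genes had the same sign in each, where genes are not independent replicates. Within slide 2 both untreated mice carried KO marrow, and the difference was fitted without a marrow term. Between slides 1 and 3 treatment coincides with slide and scan day. Neither difference is thus one of treatment alone. Of the 773 genes past both fits, 760 had the same sign in slides 1 and 3 as in the mean effect, and 771 of the 771 with a value in a plain mean difference did within slide 2. Being past both fits favours such a match, so these counts describe the genes and support nothing. The count past both fits fell without some single arrays: it was 138 without KO_untreated 2, 131 without KO_untreated 3 and 347 without the dim array WT_AOMDSS 3. These arrays lie on slide 2, so leaving 1 out also costs the slide-blocked fit precision. What lay behind the falls was not tested. A core of 98 genes (83 higher, 15 lower) passed both fits with each of 11 arrays left out in turn, and 48 genes (37 higher, 11 lower) passed under all of 23 other settings, not counting slide as a random block and slide 2 alone, which replace the slide-blocked fit only. The 48 include S100a9, Aldh1a3, Slpi, Tgm2, Socs3, Mmp7, Mpeg1, Tyrobp, Dbp, Nr1d2, Slc2a5, Car4, Sult1a1 and Sult1d1.

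Among genes with a symbol, the largest rises were those of calprotectin, Reg3 lectins, osteopontin and interleukin 1 beta. S100a8, a subunit of the neutrophil protein calprotectin, was at -7.63, -6.19 and -4.03 in untreated mice (lowest, median, highest of 6) and at 0.67, 2.94 and 4.68 in treated mice, with no overlap. Its mean effect was 8.94 ± 0.60 (SE; 492-fold, adjusted p = 5.55e-06 in limma) or 7.30 blocked by slide (adjusted p = 0.00576), and 2 of the 6 untreated arrays had its probe well above background. S100a9, the partner subunit, was at -3.68, -3.24 and -1.87 without treatment and at 3.12, 5.13 and 6.80 with it. Treated mice lay wholly above untreated ones, by 8.16 ± 0.45 (286-fold, adjusted p = 9.63e-07 in limma) and 9.48 blocked by slide (0.000171).

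Reg3b and Reg3g encode secreted lectins that bind bacteria. Reg3b was at -5.77, -1.22 and 4.73 in untreated and at 6.47, 7.54 and 8.42 in treated mice, and Reg3g at -4.09, -2.76 and 2.47 against 4.23, 4.94 and 6.21. Neither overlapped, although WT_untreated 2 held the highest untreated value of each. The effects were 8.49 ± 1.01 for Reg3b (adjusted p = 0.000201 in limma; 9.36 blocked, adjusted p = 0.0289) and 7.0 ± 0.8 for Reg3g (0.00015; 8.74, 0.011).

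Spp1 encodes osteopontin, a secreted glycoprotein of macrophages and wounded tissue. It was at -8.63, -7.15 and -5.97 without treatment, not well above background on any untreated array, and at -1.53, 0.23 and 2.19 with it, which makes it at least 74.7-fold higher. For such a bound, the untreated mean was taken over whichever was brighter on each array, this probe or the dimmest probe that still stood well above background. Il1b, the gene of an inflammatory cytokine, went from -5.21, -4.07 and -3.70 to 1.85, 2.62 and 4.44. This was a rise of 7.22 ± 0.46 (149-fold, adjusted p = 3.02e-06 in limma), or 9.43 blocked by slide (2.28e-06).

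Transcripts without a symbol rose too, L38281 by 7.92 ± 0.85 and AK152177 by 7.15 ± 0.85. The other 14 of the 20 largest rises with a symbol ran from 6.59 ± 0.59 for Aldh1a3, an enzyme of retinoic acid synthesis, to 5.29 ± 0.75 for Clec4d, a myeloid lectin receptor. They were chemokines (Ccl3, Ccl4, Cxcl2, Cxcl3, Cxcl5), proteases and an inhibitor (Mmp3, Mmp13, Slpi), myeloid surface or secreted proteins (Clec4e, Olr1, Retnlg) and Lrg1, a serum glycoprotein of the acute phase with 1 missing value. Aldh1a3 was at -3.73, -3.35 and -2.15 without treatment and at -0.06, 3.85 and 5.04 with it, where the lowest treated value was that of WT_AOMDSS 3. Slpi, which inhibits neutrophil elastase, was bright on every array, at 0.32, 1.60 and 3.23 against 6.57, 7.20 and 8.04, a rise of 5.56 ± 0.40 (47.2-fold, adjusted p = 9.99e-06 in limma). At least 13.3-fold applied to Olr1 and at least 26.7-fold to Retnlg, whose probes were not well above background in untreated mice.

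**Figure D2:**
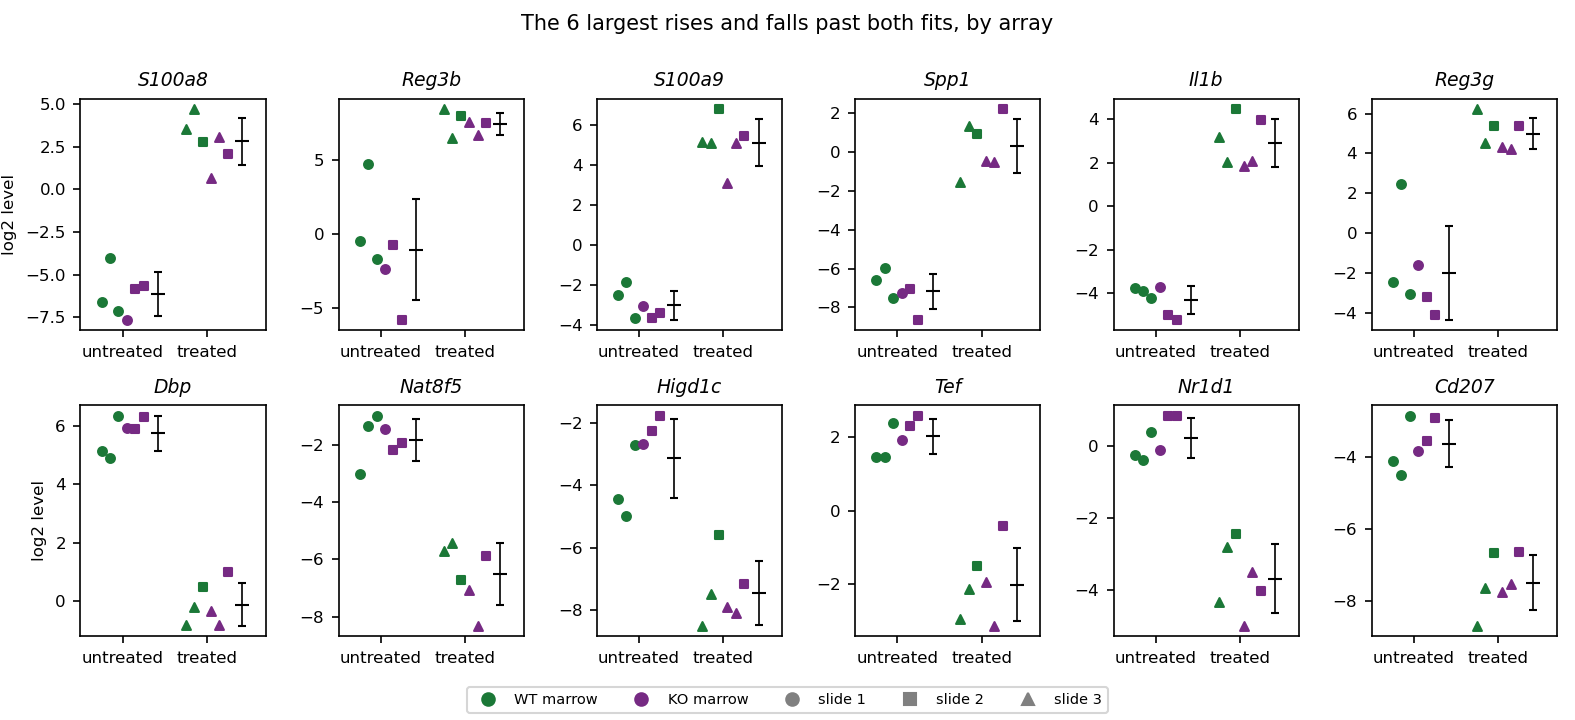
Levels (log2, relative to the 75th percentile of the array) of the 6 largest rises and the 6 largest falls past both fits, 1 point per mouse, coloured by marrow and shaped by slide, with the mean and SD of each 6 mice at the side. In all 12 genes the treated and untreated points do not overlap, because genes with overlap were left out of this ranking. The squares of slide 2 are divided in the same direction as the other shapes, which passing both fits favours.

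Neutrophil genes rose as a list, of which 17 of 24 members were measured. A probe well above background in 1 group alone was kept. Genes dim in untreated mice thus entered through treated groups, which favours rises here and in the lists below. Of 17 measured markers 11 passed both fits, all higher, against the background of 2.85% for genes with a symbol, and the median effect was 4.38 (5.08 with slide as a block; -0.19 and 0.46 over all genes). The summed level of the 17 markers, in multiples of the 75th percentile of the array, was 2.27 to 5.41 in untreated and 17.2 to 137 in treated mice. Csf3r, the receptor for the cytokine that drives neutrophil production, was at -8.68, -6.60 and -5.04 against -3.10, -1.94 and -1.10, at least 14.6-fold higher. Cxcr2, the receptor for the neutrophil-attracting CXC chemokines, had an effect of 2.72 ± 0.74 (adjusted p = 0.0238 in limma; 5.08 blocked), with overlapping groups. The granule protease gene Mmp8 changed by 4.38 ± 0.61, and Hdc, which makes histamine in neutrophils and mast cells, by 5.18 ± 0.64. Without KO_untreated 2 or without KO_untreated 3, 7 of the 17 passed both fits, and with normexp background correction 6 did, with a median of 1.63 (2.12 blocked; 0.31 and 0.67 over all genes).

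Markers of other leukocytes had fewer members past both fits. Of 17 monocyte and macrophage markers 8 passed higher (median 2.06; summed level 11.4 to 41 untreated, 49.1 to 80.7 treated). Among them were Mpeg1, a pore-forming protein of phagosomes (2.90 ± 0.22, adjusted p = 1.06e-05 in limma), Fcgr1, the high-affinity IgG receptor (2.95 ± 0.32), and the integrin Itgam (2.70 ± 0.34). Under quantile normalization, median scaling and normexp 5 of the 17 passed, and without KO_untreated 2, KO_untreated 3 and WT_AOMDSS 3 these counts were 3, 2 and 4. Of 10 mast cell markers 3 passed: the mucosal protease Mcpt1 (3.17 ± 0.29), the connective-tissue type protease Mcpt4 (2.93 ± 0.32) and Hdc. Il5ra was the 1 eosinophil marker of 6 to pass, at least 8.09-fold higher. Of 15 B and plasma cell markers Tnfrsf17 and Pou2af1 passed (2.05 ± 0.48 and 1.92 ± 0.43), and of 11 dendritic cell and class II genes Itgax and Batf3 (2.57 ± 0.25 and 1.14 ± 0.37). Other members fell in the marrow fit, where 13.5% of all genes did: 2 mast cell, 1 eosinophil, 1 B or plasma cell and 2 dendritic or class II genes. The medians of these lists were, in that order, 0.44, -0.68, 0.34 and 1.15. With slide as a block they were 1.79, 1.25, 1.72 and 1.22. Their summed levels all overlapped between treated and untreated mice. With each of 11 arrays left out in turn, Batf3 never passed both fits (0 of 11), Tnfrsf17 did in 3 cases, Pou2af1 and Il5ra in 8 and Itgax in 9. None of the 12 T and NK cell markers passed either fit (0), with a median of -0.09, or 0.72 with slide as a block and 0.25 with median scaling. Of markers of tissue under the mucosa, 0 of 12 smooth muscle and 0 of 14 adipocyte markers passed both fits, and their summed levels overlapped between treated and untreated mice. Single arrays stood apart. The median level of the smooth muscle markers was 2.23 in WT_AOMDSS 2 and -3.62 to -1.25 in the other 11 arrays. That of the adipocyte markers was 2.72 in WT_untreated 2 and -2.52 to -0.27 in the others, and WT_untreated 2 was also the highest untreated array for the antimicrobial and acute-phase genes (1.99, against -2.05 to -0.72). The enteric neuron and glia list had 1 of 13 past both fits, the tachykinin gene Tac1 (4.67 ± 0.54, or 3.01 blocked), and 11 past neither. The list's median effect was -0.52, or 1.01 with slide as a block. Its summed level, in which the brightest members weigh most, was 2.24 to 4.65 untreated against 4.86 to 28 treated. Red cell markers had medians of -1.77 and -0.64 (0.68 blocked with normexp) with 0 of 5 past both fits. The part of these cell types in the other results was not tested.

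**Figure D3:**
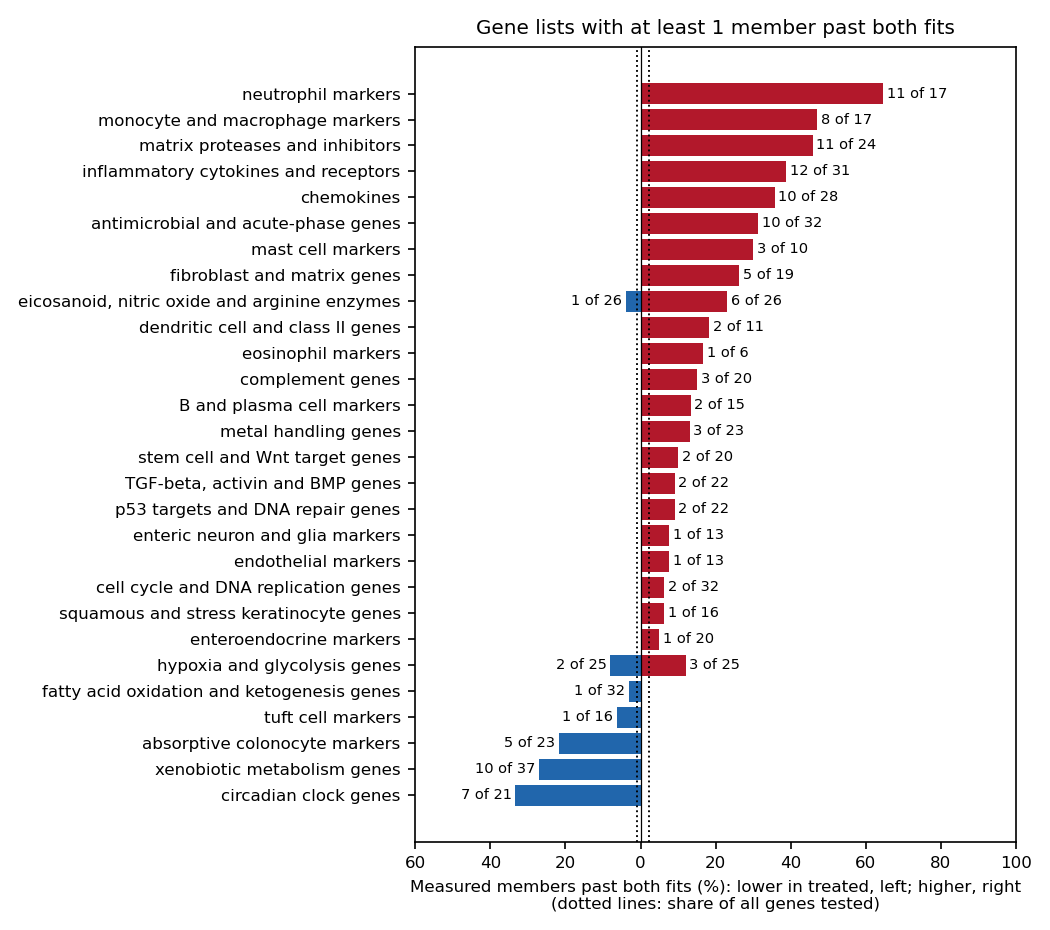
Share of the measured members of each list that passed both fits (x axis, percent), higher in treated mice to the right in red and lower to the left in blue, for lists with at least 1 such member. Dotted lines mark the 2.36% and 0.902% of all genes tested; neutrophil markers reach 11 of 17 and clock genes 7 of 21.

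Chemokine genes past both fits numbered 10 of 28, all higher. Of the neutrophil attractants, Cxcl5 was at -5.44, -3.72 and -2.59 in untreated and at 0.91, 2.77 and 3.62 in treated mice, a rise of 6.33 ± 0.46 (80.5-fold, adjusted p = 1e-05 in limma). Cxcl3 and Cxcl2 were not well above background on any untreated array and were at least 20.6-fold and at least 24.5-fold higher. Cxcl1 rose by 4.92 ± 0.47 from a range of -6.16 to -5.00 to one of -2.71 to 0.09. Attractants of monocytes and T cells rose too. Ccl3, with the largest effect of the 10 in the marrow fit (6.57 ± 0.61; 8.37 blocked), was at least 54.5-fold higher, and Ccl4 was at -5.63, -4.42 and -2.30 against -0.69, 1.16 and 4.74. Ccl2 changed by 3.81 ± 0.41, Cxcl10, an interferon-induced attractant, by 3.08 ± 0.33, and Ccl8 and Ccl9 by 2.76 ± 0.38 and 1.01 ± 0.17. None of these 10 genes had overlapping groups, which passing both fits favours: 376 of the 559 genes higher past both fits did not overlap. Of all genes tested, 8.18% had groups without overlap. Without KO_untreated 2 or without KO_untreated 3, 6 of the 28 passed.

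The promoters of Cxcl1 and Cxcl2, neighbours in the CXC cluster that rose together, are shown because each holds the NF-kB motif, the element through which interleukin 1 and TNF signals are known to act. The 250 bases before the gene start are printed 5′ to 3′ on the gene's strand, from RefSeq (GRCm38.p6), with the motif in capitals. Cxcl1 lies at chr5:90890995-90891244 (plus strand) and Cxcl2 at chr5:90903649-90903898 (plus strand), and in each the capitals cover 2 overlapping matches.
Cxcl1: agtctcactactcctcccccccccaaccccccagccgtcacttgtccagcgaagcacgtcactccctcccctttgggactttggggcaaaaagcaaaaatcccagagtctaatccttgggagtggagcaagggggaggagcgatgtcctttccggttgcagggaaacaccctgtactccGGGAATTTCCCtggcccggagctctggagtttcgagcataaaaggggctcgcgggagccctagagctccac
Cxcl2: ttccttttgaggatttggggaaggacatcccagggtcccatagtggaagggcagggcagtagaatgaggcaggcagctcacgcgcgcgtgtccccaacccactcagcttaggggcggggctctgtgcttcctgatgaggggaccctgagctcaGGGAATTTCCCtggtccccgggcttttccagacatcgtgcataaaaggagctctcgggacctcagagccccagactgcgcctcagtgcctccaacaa
Of the 10 chemokine genes 7 had a promoter in the table, and 5 of these held the NF-kB motif on either strand (71.4%). The share was 4.46% of all 27025 genes in the table, 9.7% of the 330 genes higher past both fits that had a promoter and 6.52% of the 138 lower ones. The AP-1 motif TGANTCA stood in 11.5% of the higher, 10.1% of the lower and 7.82% of all genes, and the STAT motif TTCNNNGAA in 9.09%, 7.25% and 8.13%. A C/EBP palindrome was held by 0.303% of higher genes and 0.185% of all. These are matches of letters, not measured sites.

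Cytokine genes, receptors and feedback genes had 12 of 31 members past both fits, all higher (medians 1.12 and 2.90 blocked). Of the interleukin 1 family, Il1a rose by 3.35 ± 0.54, the decoy receptor Il1r2 by 4.20 ± 0.49 and the interleukin 33 receptor Il1rl1 by 2.94 ± 0.43. Il6 changed by 3.07 ± 0.52, and Tnf went from -3.71, -2.40 and -1.56 to -0.96, -0.11 and 0.11 (2.27 ± 0.32). Il22, which acts on epithelium, was not well above background on any untreated array and was at least 3.53-fold higher. It passed both fits in 3 of the 11 cases with 1 array left out. Osmr, the receptor subunit for oncostatin M, was at -5.26, -4.17 and -1.88 against 0.59, 1.31 and 1.95, a rise of 5.05 ± 0.47 (33.2-fold, adjusted p = 4.17e-05 in limma). Socs3, a STAT3 target that restrains the same receptors, was among the 48 genes past both fits under all of those 23 settings. It was at 0.26, 0.90 and 1.48 in untreated and at 5.03, 5.14 and 5.98 in treated mice (4.43 ± 0.23; 21.6-fold, adjusted p = 9.06e-07 in limma), and 4.67 blocked (0.000565). Csf1, Il4ra and Tnfaip2 completed the list, at 2.05 to 2.24. Without KO_untreated 3, 4 of the 31 passed, without KO_untreated 2 7, and with normexp 6.

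Enzymes of lipid mediators and of arginine changed in both directions. Ptgs2, the inducible cyclooxygenase, was at -8.81, -7.39 and -6.16 in untreated mice, where its probe was never well above background, and at -4.30, -3.09 and -0.81 in treated mice, at least 8.4-fold higher. Hpgd, which breaks prostaglandins down, fell from 2.68, 3.65 and 4.23 to 1.20, 1.46 and 1.95, a change of -2.06 ± 0.21 (adjusted p = 6.24e-05 in limma; -2.19 blocked, adjusted p = 0.00974). Neither gene overlapped between the groups. Arg1, which splits arginine, rose by 4.74 ± 0.45 (26.6-fold), and Nos2, which makes nitric oxide from it, passed the marrow fit alone (2.54 ± 0.48; 2.37 blocked, adjusted p = 0.0707). Cybb and Ncf4, which encode subunits of the phagocyte oxidase, were higher by 2.07 ± 0.53 and 2.40 ± 0.31. Alox12, a lipoxygenase, had 2.11 ± 0.51 with overlapping groups. In all 6 of 26 passed higher and 1 lower; without KO_untreated 3, 2 passed higher and 0 lower, without KO_untreated 2 and without WT_AOMDSS 3 3 passed higher, with normexp 1.

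Of 32 antimicrobial and acute-phase genes 10 passed higher. Besides Slpi, the Reg3 lectins and calprotectin, Wfdc18 rose from 1.24, 1.65 and 2.50 to 4.73, 5.37 and 6.53 (3.74 ± 0.30, adjusted p = 1.64e-05 in limma). Lcn2, the iron-siderophore binder lipocalin 2, was at least 5.61-fold higher, its probe never well above background in untreated mice. Without KO_untreated 3, 6 of the 32 passed higher, and with normexp 8 passed higher and 3 lower. Of 24 matrix proteases and inhibitors 11 passed, all higher (medians 2.09 and 3.06 blocked). Mmp3, stromelysin 1, was at -9.13, -6.96 and -4.70 against -1.94, -0.79 and 1.78 (6.25 ± 0.70), and the collagenase Mmp13 at -5.88, -4.67 and -4.24 against -1.16, 0.03 and 2.56 (5.33 ± 0.45). Mmp7 (2.94 ± 0.43), Mmp10 (2.69 ± 0.43), the urokinase receptor Plaur (2.98 ± 0.27) and tissue plasminogen activator Plat (3.14 ± 0.33) also rose, without overlap. Without KO_untreated 2 6 of the 24 passed, without KO_untreated 3 4, with normexp 7.

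Stromal and growth-factor genes were fewer. Of 19 fibroblast and matrix genes 5 passed higher: Spp1, Inhba, Tnc, Pdgfra and Col5a1. Inhba, the activin A subunit, was at -7.35, -6.46 and -4.53 against -1.65, -1.35 and 0.83 (5.13 ± 0.58; 34.9-fold, adjusted p = 0.000148 in limma), and the matrix glycoprotein Tnc changed by 3.35 ± 0.64. Tnc passed both fits in 3 of the 11 cases with 1 array left out. Of the 19, 2 passed without KO_untreated 2 or without KO_untreated 3, 3 without KO_AOMDSS 3 and 8 without WT_untreated 2. Tgfbi, a secreted TGF-beta target, rose by 3.04 ± 0.35, and with Inhba made 2 of 22 TGF-beta, activin and BMP genes. Of 13 endothelial markers Vcam1, the leukocyte adhesion molecule, passed (2.57 ± 0.42). Of 16 squamous and stress keratinocyte genes Ly6d passed, from -2.73, -1.30 and 0.73 to 2.88, 3.38 and 3.83 (4.50 ± 0.50; 6.58 blocked).

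The lists of proliferation and of the Wnt pathway each had 2 members past both fits, higher, where the background was 2.85%. Myc rose by 1.45 ± 0.22 and the Wnt target Sp5 by 2.47 ± 0.52, 2 of 20 stem cell and Wnt genes, while Axin2, a direct Wnt target, had -1.01 ± 0.29 in the marrow fit and 0.27 with slide as a block. Of 32 cell cycle and replication genes Mcm4 and Mcm10 passed (0.81 ± 0.26 and 1.38 ± 0.35), and of 22 p53 and repair genes Phlda3 and Aen (1.70 ± 0.27 and 1.01 ± 0.24). None of the 17 EGF receptor ligand and receptor genes (0), 22 endoplasmic reticulum stress genes (0), 19 chaperones (0), 19 tight junction genes (0) or 7 mucin genes (0) passed both fits. Over all genes the marrow fit called 7.55% higher and 13.5% lower, and the slide-blocked fit 4.18% and 2.11%. Beside these shares, the EGF receptor list still had 6 of 17 higher in the marrow fit and 1 with slide as a block, at medians of 0.68 and 1.21. Its summed level was 34.6 to 68.3 in untreated and 104 to 149 in treated mice. Interferon-stimulated genes had 10 of 24 higher in the marrow fit and 0 with slide as a block, at medians of 0.82 and 0.99, and respiratory chain genes had 13 of 27 lower and 0, at -0.50 and -0.21. In the hypoxia and glycolysis list, Pfkfb3, a regulator of glycolysis, rose by 3.67 ± 0.34, the glucose carrier Slc2a3 by 2.11 ± 0.42 and the hexokinase Hk2 by 1.38 ± 0.26. The glycolytic enzyme genes Pfkl and Pkm fell by 0.87 and 0.91, so that 3 of 25 were higher and 2 lower. Of the complement list C1qc (2.55 ± 0.38), Cfp and Itgam passed, 3 of 20, and of 23 metal handling genes Slc11a1, Cp and Hmox1, at 1.85 ± 0.42, 1.51 ± 0.47 and 1.20 ± 0.24. Of the 11 cases with 1 array left out, Mcm4, C1qc and Cp passed both fits in 2, Cfp in 3, Mcm10, Aen, Hk2 and Pkm in 4, Phlda3 in 5 and Myc in 8. The gut hormone gene Cck was the 1 of 20 enteroendocrine markers to pass (1.07 ± 0.26), which is 5% beside the background of 2.85%.

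The largest fall past both fits was that of a clock output gene. Dbp, a transcription factor whose RNA follows the circadian cycle, was at 4.90, 5.93 and 6.36 in untreated and at -0.85, -0.30 and 0.99 in treated mice. Treated mice lay wholly below untreated ones, with an effect of -5.91 ± 0.34 (60.1-fold, adjusted p = 1.33e-06 in limma), and of -5.14 blocked by slide (0.000571). Its relative Tef was at 1.47, 2.12 and 2.59 against -3.15, -2.04 and -0.41 (-4.05 ± 0.41). Nr1d1, the repressor REV-ERB alpha, was at -0.39, 0.13 and 0.83 against -4.99, -3.76 and -2.44 (-3.90 ± 0.38), and Nr1d2, its paralog, at 0.57, 1.63 and 1.93 against -2.36, -1.64 and -1.33 (-3.09 ± 0.24). The repressor gene Ciart changed by -3.67 ± 0.33, the deubiquitinase gene Usp2 by -2.11 ± 0.24 and the period gene Per1, whose groups overlapped, by -1.20 ± 0.25.

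Of 21 clock genes these 7 passed both fits, all lower, against 1.18% of genes with a symbol, with medians of -1.44 and -1.12 blocked. The summed level of the list was 51.3 to 120 in untreated and 19.8 to 29.4 in treated mice. Arntl, the activator BMAL1, is known to cycle in antiphase to these genes. It was at -0.50, 0.01 and 0.70 against 0.71, 1.39 and 1.64, and passed the marrow fit (1.25 ± 0.22, adjusted p = 0.00279 in limma) but not the slide-blocked fit (0.39, adjusted p = 0.445). Its partner Clock had 0.17 ± 0.15, and Per2 had -0.54 ± 0.34, neither past a fit. Cry2 and Per3 were lower in the marrow fit alone (-1.80 ± 0.24 and -2.27 ± 0.42). Quantile normalization and median scaling left 7 clock genes past both fits and normexp 5, but with normexp the median of the list was -0.20 in both fits. Of the list, 2 passed without KO_untreated 2 or without KO_untreated 3, and 4 did without WT_AOMDSS 3. The hour of sampling is not in the labels, and its part in the changes of the clock genes was not tested.

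**Figure D4:**
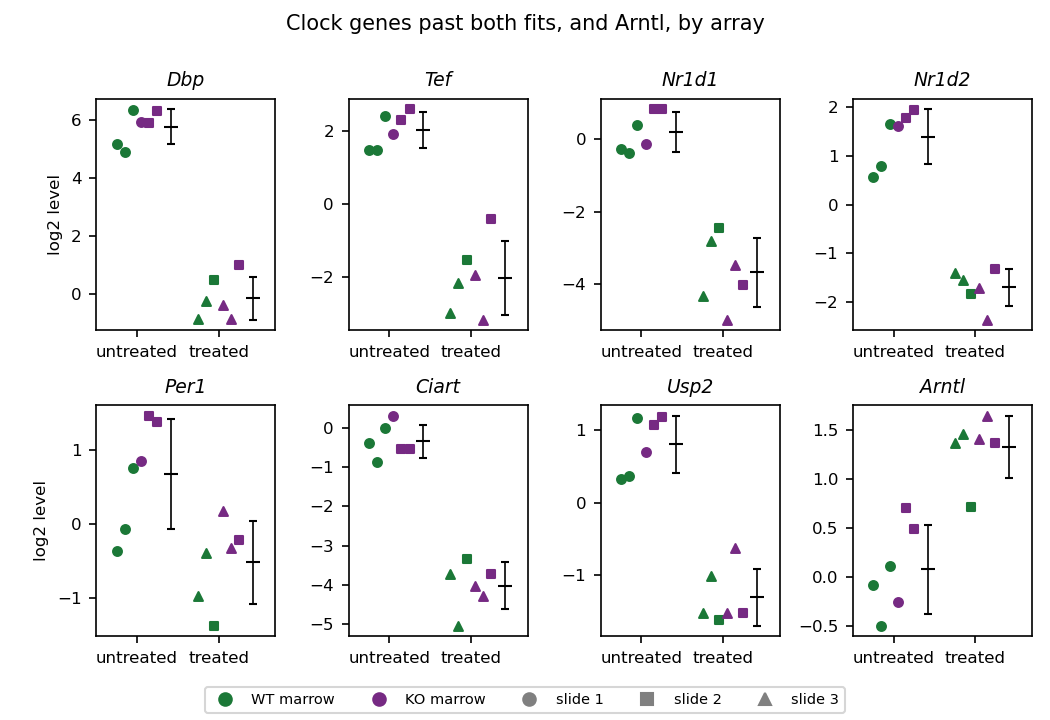
Levels (log2, relative to the 75th percentile of the array) of the 7 clock genes past both fits and of Arntl, 1 point per mouse, coloured by marrow and shaped by slide, with mean and SD of each 6 mice. Of the 7 clock genes, all but Per1 are split without overlap into high untreated and low treated mice. Arntl is split the other way, narrowly without overlap, and its squares of slide 2 lie closer together than its other shapes.

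The E-box CACGTG, to which the BMAL1 and CLOCK pair is known to bind, stood in the promoters of Ciart, Per1 and Tef, 3 of the 7 clock genes (42.9%), against 6.86% of all genes, 11.6% of the genes lower and 8.18% of those higher past both fits. The D-box TTATGTAA and the ROR core TAGGTCA stood in none of the 7 (0), and in 2.9% and 3.62% of lower genes against 0.977% and 2.55% of all. The promoters with an E-box are shown as before, with the E-box in capitals on either strand. Ciart lies at chr3:95882229-95882478 (minus strand) with 3 E-boxes, Per1 at chr11:69098699-69098948 (plus strand) with 1 and Tef at chr15:81802423-81802672 (plus strand) with 1.
Ciart: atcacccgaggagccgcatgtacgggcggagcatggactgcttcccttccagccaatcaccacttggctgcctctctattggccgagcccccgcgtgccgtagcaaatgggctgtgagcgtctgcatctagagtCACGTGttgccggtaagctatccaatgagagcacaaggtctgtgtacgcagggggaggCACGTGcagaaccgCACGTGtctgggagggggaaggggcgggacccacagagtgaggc
Per1: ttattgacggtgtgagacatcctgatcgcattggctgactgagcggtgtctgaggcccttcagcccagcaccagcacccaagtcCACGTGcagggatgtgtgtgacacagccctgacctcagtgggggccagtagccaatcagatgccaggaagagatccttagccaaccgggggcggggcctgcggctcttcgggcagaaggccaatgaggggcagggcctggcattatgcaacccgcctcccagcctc
Tef: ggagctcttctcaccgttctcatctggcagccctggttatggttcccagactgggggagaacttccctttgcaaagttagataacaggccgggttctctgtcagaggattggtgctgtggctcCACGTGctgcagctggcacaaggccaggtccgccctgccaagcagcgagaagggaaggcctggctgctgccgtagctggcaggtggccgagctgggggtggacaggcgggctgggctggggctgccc

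Of 23 markers of the absorptive colonocyte, 5 passed both fits, all lower, and all 5 are transporters or a carbonic anhydrase. Slc26a3, the chloride and bicarbonate exchanger of the surface epithelium, was at 5.10, 5.50 and 5.92 in untreated and at 1.84, 2.77 and 3.69 in treated mice (-2.71 ± 0.26, adjusted p = 4.98e-05 in limma; -2.21 blocked, adjusted p = 0.00894). The sodium and proton exchangers Slc9a3 and Slc9a2 changed by -2.38 ± 0.35 (0.16 blocked by slide with normexp) and -1.85 ± 0.25, and the phosphate carrier Slc20a1, with 1 missing value, by -2.95 ± 0.42. Car4, a membrane carbonic anhydrase of surface cells, was at 5.42, 5.67 and 6.19 against 3.64, 3.96 and 4.49 (-1.73 ± 0.20). In the marrow fit 16 of the 23 were lower (13.5% of all genes), and the slide-blocked fit had 5 lower and 1 higher (2.11% and 4.18% of all genes). The list's median was -1.61, or -0.96 with slide as a block, and its summed level was 1460 to 2310 untreated against 597 to 1180 treated. Guca2a, the guanylin gene, was lower in the marrow fit alone (-2.08 ± 0.36; -1.38 blocked, adjusted p = 0.225), and Krt20, a keratin of surface cells, had -0.44 ± 0.31 and 0.62 blocked. Of 17 goblet cell genes 0 passed both fits, and of 16 tuft cell markers Rgs13 did (-2.60 ± 0.34). Rgs13 passed in 4 of the 11 cases with 1 array left out. Without KO_untreated 2 and without WT_AOMDSS 3, 2 of the 23 colonocyte markers passed, without KO_untreated 3 1, and with median scaling 8.

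Of 37 genes of xenobiotic metabolism 10 passed both fits, all lower, with medians of -1.29 and -1.15 blocked and a summed level of 734 to 1000 untreated against 300 to 475 treated. Sult1a1, a phenol sulfotransferase, was at 3.83, 4.40 and 5.09 against 1.40, 1.90 and 2.60 (-2.52 ± 0.23, adjusted p = 4.24e-05 in limma). The flavin monooxygenase Fmo5 changed by -2.36 ± 0.24 and the glucuronosyltransferase Ugt2b35 by -2.24 ± 0.22. Cyp2c55, a cytochrome P450 of the colon, was at 5.57, 5.87 and 6.40 against 2.30, 2.75 and 5.03 with 2 missing values (-2.09 ± 0.25). Its effect was -3.13 with WT marrow and -1.05 with KO marrow. The drug exporter gene Abcb1a, the sulfotransferase Sult1d1, Cyp3a13, Ces2c, Cyp2d26 and Adh1 completed the 10, from -1.99 ± 0.24 for Sult1d1 to -1.19 ± 0.36 for Adh1. With median scaling 14 passed, and 3, 2 and 3 passed without KO_untreated 2, KO_untreated 3 and WT_AOMDSS 3. Of 32 fatty acid oxidation genes Acadm passed (-0.79 ± 0.21, with 2 missing values). In the 11 cases with 1 array left out, Adh1 passed both fits in 2, Abcb1a in 3, Acadm in 4 and the other genes named here in 7 or more.

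Other genes among the 20 largest falls were of mixed kinds. Some handle sugars, nitrogen or vitamin A, and some had dim probes. Slc2a5, the fructose carrier, was at 0.69, 1.46 and 1.74 against -3.0, -2.38 and -1.63 (-3.73 ± 0.29; 13.2-fold lower, adjusted p = 1.49e-05 in limma). Mptx1, a pentraxin gene of the gut, was bright, at 8.92, 9.16 and 10.31 and fell to 4.61, 5.32 and 6.70 (-3.81 ± 0.43, with 2 missing values). Otc, the urea cycle enzyme, changed by -3.21 ± 0.31, Rbp2, the intracellular retinol carrier, by -3.03 ± 0.29, the gluconeogenic enzyme Fbp1 by -2.82 ± 0.36 and the pyrimidine-degrading enzyme Dpyd by -2.78 ± 0.43. Nat8f5, an acetyltransferase-family gene, was at -3.02, -1.70 and -0.98 against -8.32, -6.30 and -5.42 (-4.70 ± 0.50), with 3 of 6 treated arrays well above background. Cpn1, Syn2 and Gjb5 had -2.88 ± 0.38, -2.82 ± 0.32 and -2.79 ± 0.32. In the 11 cases with 1 array left out, Cpn1 passed both fits in 2, Fbp1 in 3 and the other genes of this paragraph in 5 or more. Higd1c (-4.32 ± 0.57) and Cd207, the langerin gene (-3.85 ± 0.49), were at least 9.16-fold and at least 6.6-fold lower, but with normexp background correction their effects were 0.08 and 0.40, and those of Fut9 (-3.19 ± 0.45) and Ces1b (-3.17 ± 0.48) 0.28 and 0.13.

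Higd1c was at -4.98, -2.70 and -1.78 in untreated and at -8.51, -7.69 and -5.61 in treated mice, and Cd207 at -4.50, -3.70 and -2.86 against -8.68, -7.58 and -6.64. Neither probe was well above background on any treated array, and 11 of the 773 genes turned sign in the marrow fit with normexp.

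Genes past only the marrow fit or only the slide-blocked fit had effects of other sizes in the other fit. Among the former, haptoglobin (Hp), Igfbp5, Ly6c1, Ltf and Lbp had the largest rises, 5.52 to 3.79, with blocked effects of 5.07, 5.92, 4.07, 3.57 and 1.89 and adjusted p of 0.0561 to 0.105. The largest falls included Slc30a10 (-5.34; -3.22 blocked), the spectrin gene Sptb (-4.37; -0.64), Evc (-4.14; -1.53) and Nrxn3 (-3.84; 1.01, and 0.09 in the marrow fit with normexp). Past the slide-blocked fit alone, Cstad, Wnt10a, Cd70, Twist2 and Plg had the largest rises, 5.47 to 4.46, with marrow-fit effects of 1.78, 1.05, -0.55, 0.79 and -2.82. The largest falls there were Dnmbp, Ptprh, Cnnm4, Rbm45 and Pkdcc, -4.36 to -3.51, with marrow-fit effects of -1.27, -0.63, -1.55, -0.17 and -1.32. All 10 genes named as past the slide-blocked fit alone had overlapping groups, where 8.18% of all genes tested had groups without overlap.

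The effects with WT and with KO marrow had the same sign in 773 of the 773 genes past both fits, which the choice of genes favours, and correlated at 0.72 across all genes. S100a8 had 9.57 with WT and 8.31 with KO marrow, Reg3b 6.77 and 10.22, Mmp3 5.13 and 7.38, Il1b 7.18 and 7.26, Dbp -5.68 and -6.14, and Slc26a3 -2.38 and -3.04. The difference between the marrows passed for 0 genes in limma (smallest adjusted p 0.897), where 829 genes had an unadjusted p under 0.05, 31 of them among the 773. With slide as a block it passed for 0, with 290 at an unadjusted p under 0.05, and with array weights for 2856. Arrays of 3 mice per group limit what this comparison can show. Muc1 itself was at -3.80, -2.19 and -1.50 in untreated and at -3.53, -2.23 and -0.99 in treated mice, and its effect was 0.24 ± 0.42 (adjusted p = 0.706 in limma; 0.23 blocked, adjusted p = 0.822), with 2 probes that disagreed.

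**Figure D5:**
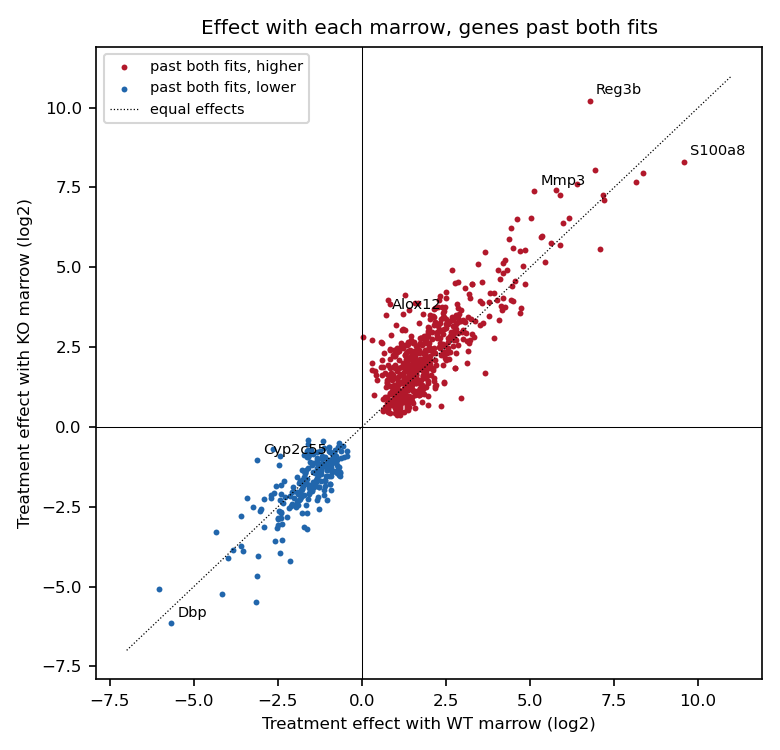
Treatment effect with WT marrow (x axis, log2) against that with KO marrow (y axis, log2) for the 773 genes past both fits, red where higher and blue where lower in treated mice. The points lie along the dotted line of equal effects, with Reg3b (6.77 and 10.22) above it and S100a8 (9.57 and 8.31) below.

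In the authors' deposited table of 2506 probes, 570 were the probes of genes past both fits here, and in all 570 the treated minus untreated difference of the authors' group means had the same sign. The table was made from the same arrays, and over 1798 shared probes its differences correlated at 1 with the mean effects.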

How the data were processed

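The files are scanner output that the authors deposited for 12 Agilent mouse arrays of 1 colour (design 014868, Feature Extraction 10.7.3.1). They hold linear intensities, which the scanner software had corrected for background and left unscaled between arrays, per the file headers. The flags for outlier spots and for signal above background were used as deposited. A further deposited table lists 2506 probes with a log2 mean for each of the 4 groups, averaged by the authors and centred per probe.

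Processed signals of 43379 gene spots were taken as log2 and set relative to the 75th percentile of each array. Outlier spots were set to missing, and spots of a probe averaged, which gave 41174 probes. A probe stayed in if some group had it well above background on every array, which held for 30219, and the brightest such probe stood for its gene. Accessions in the files were matched to RefSeq symbols (GRCm38.p6, names only) for 24375 probes, which left 23747 genes, 14663 with a symbol, 1586 lacking a value on some array and 14 without an estimate in the slide-blocked fit. The model was fitted in R 4.3.3 with limma 3.58.1 (intensity trend), with 8 residual degrees of freedom and 6 with slide as a block, and Benjamini-Hochberg adjustment over all genes. The precision is limited by 3 mice per group, 1 array per mouse. The effect is treated minus untreated, averaged over the marrows with equal weight.

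The comparison, the 40 gene lists and the motifs were chosen with earlier results of these data known, so list counts are descriptions without a test. Named genes were the 20 largest rises and falls past both fits with a symbol (no clone or predicted-gene name) and without overlap of the 6 treated and 6 untreated values, up to 4 members past both fits per list, the 5 largest per direction past 1 fit alone, and Muc1. Further list members, the genes of the core of 48, genes outside both fits given beside a list, and 2 transcripts without a symbol were named with their values known. Motifs were searched on both strands of the 250 bases before each gene start in the promoters from RefSeq, where any of several starts counted. The fits were checked on simulated data. Deviations of same-numbered mice of a marrow from their group means correlated at -0.38 to 0.21 across genes. Alternatives covered scaling, background correction, filters, the model, blocks and leaving out arrays. A few genes that these rules name are not reported here.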

Additional observations from a re-analysis of the deposited data

Results flagged for a closer look

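Of 83 sets of 6 arrays examined (treated and untreated mice for the 40 ranked genes, Muc1 and 2 measures of array quality, leaving out sets with a missing value), 2 held an array far from the others, where chance gives about 1 in 20. Aldh1a3 was at -0.06 in WT_AOMDSS 3, the array of lowest signal, while the next treated mouse was at 3.71. The share of probes well above background was 58.44% in KO_untreated 2, below the 71.71% of the next untreated array, and this array lies on slide 2 and carries weight in every slide-blocked effect.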

How the results depend on the processing

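The counts were 773 genes past both fits, 4988 past the marrow fit and 1494 past the slide-blocked fit, and quantile normalization, median scaling, both other filters on dim probes and the mean of a gene's probes left them within 1.5 times. The genes behind similar counts differed. Of the 773, 72.2% passed both fits again with quantile normalization, 54.9% with median scaling and 35.1% with normexp. The mean of a gene's probes kept 82.9%, no filter on dim probes 86.4% and the filter for all arrays 72.4%. Normexp background correction gave 393, 2377 and 602, and an adjusted p under 0.01 gave 163, 1464 and 267. Without the intensity trend 492 passed both fits and 936 the slide-blocked fit, and with additive marrow and treatment 1229 and 2890. Array weights, whose estimation stopped before convergence, gave 264, 8855 and 365, and 2856 genes for the difference between marrows, which was 0 under the other settings that tested it. Slide as a random block gave 1206 past both fits, and slides 1 and 3 alone, chosen after the slide layout was seen, 10092 past the marrow fit.

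With the replicate number as a block 514 genes passed both fits and 846 the slide-blocked fit. The block takes up degrees of freedom, and replicate number is partly tied to slide. These counts therefore cannot show whether same-numbered mice were paired.

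Leaving out 1 array in turn gave 131 to 994 genes past both fits, 2786 to 8865 past the marrow fit and 178 to 4518 past the slide-blocked fit; the last could not be fitted without KO_untreated 1. The marrow fit had its lowest counts without KO_AOMDSS 1 and without WT_untreated 2, and its highest without WT_AOMDSS 3, and the slide-blocked fit had 4518 without KO_AOMDSS 3. The causes were not tested.

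Of the 40 ranked genes, 4 turned sign, under normexp only: Cd207 had 0.40 (0.33 blocked by slide), Fut9 0.28 (0.10 blocked), Ces1b 0.13 and Higd1c 0.08, none past the threshold. Scan day as a block was not run. Signals near background limit the genes of low level, and 2 treated mice carry each slide-blocked effect.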
